A study of Rattus norvegicus with 6 samples.

Results

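Liver enzymes of amino acid breakdown, the urea cycle and gluconeogenesis were compared between rats given corn oil and rats given carbon tetrachloride (CCl4), a solvent that injures liver tissue. The set was a list of 44 gene symbols grouped by enzyme role, and 43 of them had a probe on the array that could be matched through its RefSeq accession. Uroc1 (urocanase, of histidine breakdown) had no matched probe and gave no value. All 43 measured genes passed the filter on dim probes and were well above background on all 6 arrays, and none was saturated, so that the set made up 43 of the 11939 genes tested.

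The 6 samples were livers of male Sprague-Dawley rats of the Crl:CD(SD) stock, bought at 5 weeks of age. Corn oil, the vehicle, was given to 3 animals, and CCl4 at 100 mg/kg/day to the other 3. The labels gave 2 exposure times: a design text of 28 days and a treatment protocol of 9 weeks, so the length of exposure and the age at sampling were not settled. RNA of the whole organ was labelled with Cy3 and hybridised to 1-colour Agilent arrays, so a fall in hepatocyte number and a fall in RNA per hepatocyte could not be told apart. The 3 corn oil arrays and the array of CCl4 replicate 1 were on the first slide, and CCl4 replicates 2 and 3 on the second, scanned on another day. A level below is the log2 of an array's processed signal relative to that array's 75th percentile, and a change is the mean level in CCl4 minus the mean level in corn oil, with 3 animals per group. Each change is given with its standard error (SE). Levels are compared within a gene, never between genes, since each probe has its own response.

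The arrays were alike in quality. Between 61.9 and 67.3% of probes were well above background, the 75th percentile of the signal was 582.6 to 675.6 units, and 0 to 4 probes per array were saturated. Levels correlated at 0.984 to 0.99 within groups and at 0.973 to 0.987 between groups, across genes. All 10 hepatocyte markers (Alb, Apoa1, Ttr and others) were measured and passed the filter on dim probes.

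Amino acid carbon that the liver does not use for protein is broken down to pyruvate, acetyl-CoA or intermediates of the citric acid cycle, and much of it is turned into glucose. The nitrogen that is set free is made into urea in the urea cycle, which begins in the mitochondria of hepatocytes with the joining of ammonia and bicarbonate. Many of these enzymes are most abundant in hepatocytes near the portal vein, and several are induced by glucagon, cyclic AMP and glucocorticoids during fasting and repressed by insulin after feeding.

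Promoter windows show what is written upstream of these genes, and RefSeq (build GRCr8) had one for 37 of the 44 listed symbols, 3 of them with several. In the 250 bases before the start, searched on both strands, the full cAMP response element TGACGTCA was in 0 of 37 genes and in 1.59% of 33469 windows of all genes. Its core TGACG, part of the full element, was in 5 of 37 (Aass, Gls2, Gstz1, Mat1a and Pck1; 13.5%, against 18.2% of all windows). A C/EBP motif, TTGCNNCAA, was in G6pc1 (2.7% against 1.75%). The HNF4 core CAAAGTCCA was in Cps1 and Kmo (5.41% against 0.338%), and TATAAA in 6 of 37 (Aldh4a1, Ass1, Bhmt, Ftcd, G6pc1 and Tdo2; 16.2% against 12.9%). A match of letters is not a measured binding site. The windows of 4 genes are printed 5′ to 3′ because they cover the gene with the largest change (Oat), the gatekeepers of gluconeogenesis (Pck1 and G6pc1) and the entry step of the urea cycle (Cps1).
Oat, chr1:196797755-196798004, minus strand: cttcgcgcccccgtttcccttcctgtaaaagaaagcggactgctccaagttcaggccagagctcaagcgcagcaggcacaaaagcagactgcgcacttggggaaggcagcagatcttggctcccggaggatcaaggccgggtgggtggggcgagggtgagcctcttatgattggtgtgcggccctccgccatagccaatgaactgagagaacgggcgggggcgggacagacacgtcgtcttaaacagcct
Pck1, chr3:182348322-182348571, plus strand: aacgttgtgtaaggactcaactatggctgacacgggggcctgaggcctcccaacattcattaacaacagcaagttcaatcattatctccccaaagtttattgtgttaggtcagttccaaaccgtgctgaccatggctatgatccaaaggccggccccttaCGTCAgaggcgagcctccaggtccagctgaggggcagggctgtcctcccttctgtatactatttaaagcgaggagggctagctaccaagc
G6pc1, chr10:86807409-86807658, plus strand: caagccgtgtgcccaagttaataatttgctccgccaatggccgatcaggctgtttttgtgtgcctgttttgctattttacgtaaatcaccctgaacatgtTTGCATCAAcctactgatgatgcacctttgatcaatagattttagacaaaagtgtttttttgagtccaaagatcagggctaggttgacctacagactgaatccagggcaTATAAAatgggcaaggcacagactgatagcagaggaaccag
Cps1, chr9:76063613-76063862, plus strand: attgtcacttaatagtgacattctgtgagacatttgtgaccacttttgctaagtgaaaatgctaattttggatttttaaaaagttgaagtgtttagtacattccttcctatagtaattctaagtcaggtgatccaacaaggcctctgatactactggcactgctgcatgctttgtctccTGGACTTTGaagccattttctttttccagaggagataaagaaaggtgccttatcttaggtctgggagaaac
Capitals mark the motif letters. In Pck1 they are the cAMP core on the minus strand, at bases -90 to -86 from the start, with TGACG read as CGTCA. The G6pc1 capitals are the C/EBP motif at -150 to -142 and TATAAA at -41 to -36, and those of Cps1 are the HNF4 core on the minus strand at -71 to -63. The window of Oat held none of the 5 motifs searched.

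No enzyme gene of the set passed the test, which was limma's moderated test with Benjamini-Hochberg adjustment over all 11939 genes and a threshold of 0.05. Called lower in CCl4 were 0 of 43, against 0.0754% of all genes tested (9 genes), and called higher were 0 of 43, against 0.561% (67 genes). The smallest adjusted p in the set was 0.1, for Kynu, and the largest 0.987. At an unadjusted p below 0.05, 10 of 43 were lower (23.3%, against 9.77% of all genes) and 0 were higher (against 9.95%). The change was below 0 for 35 of 43 genes (81.4%), as it was for 57.2% of all genes. The median change of the set was -0.26, and that of all genes was -0.05. Changes ran from -1.34 (Oat) to 0.77 (Sds), and 1 gene, Oat, passed 2-fold.

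The share below 0 was also higher among bright genes, to which most of the set belongs. Of 1499 genes with a mean level of 4 or more, 66.6% had a change below 0, their median was -0.11, and 24.5% had all CCl4 arrays below every corn oil array. The 29 enzyme genes at that level had a median change of -0.30, with 86.2% below 0 and 27.6% not overlapping. At an unadjusted limma p below 0.05, 27.6% of the 29 were lower and 0 higher, against 15.3% and 4.34% of the 1499. Precision was that of 3 arrays per group. The SE of a change was 0.12 to 0.49 (median 0.21), and the 95% interval had a median width of 1.02. For 26 of 43 genes the interval lay wholly between -1 and 1, so a 2-fold difference was outside it, whereas for the others it was not. A p that misses the threshold does not show that the groups had equal levels.

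**Figure D1:**
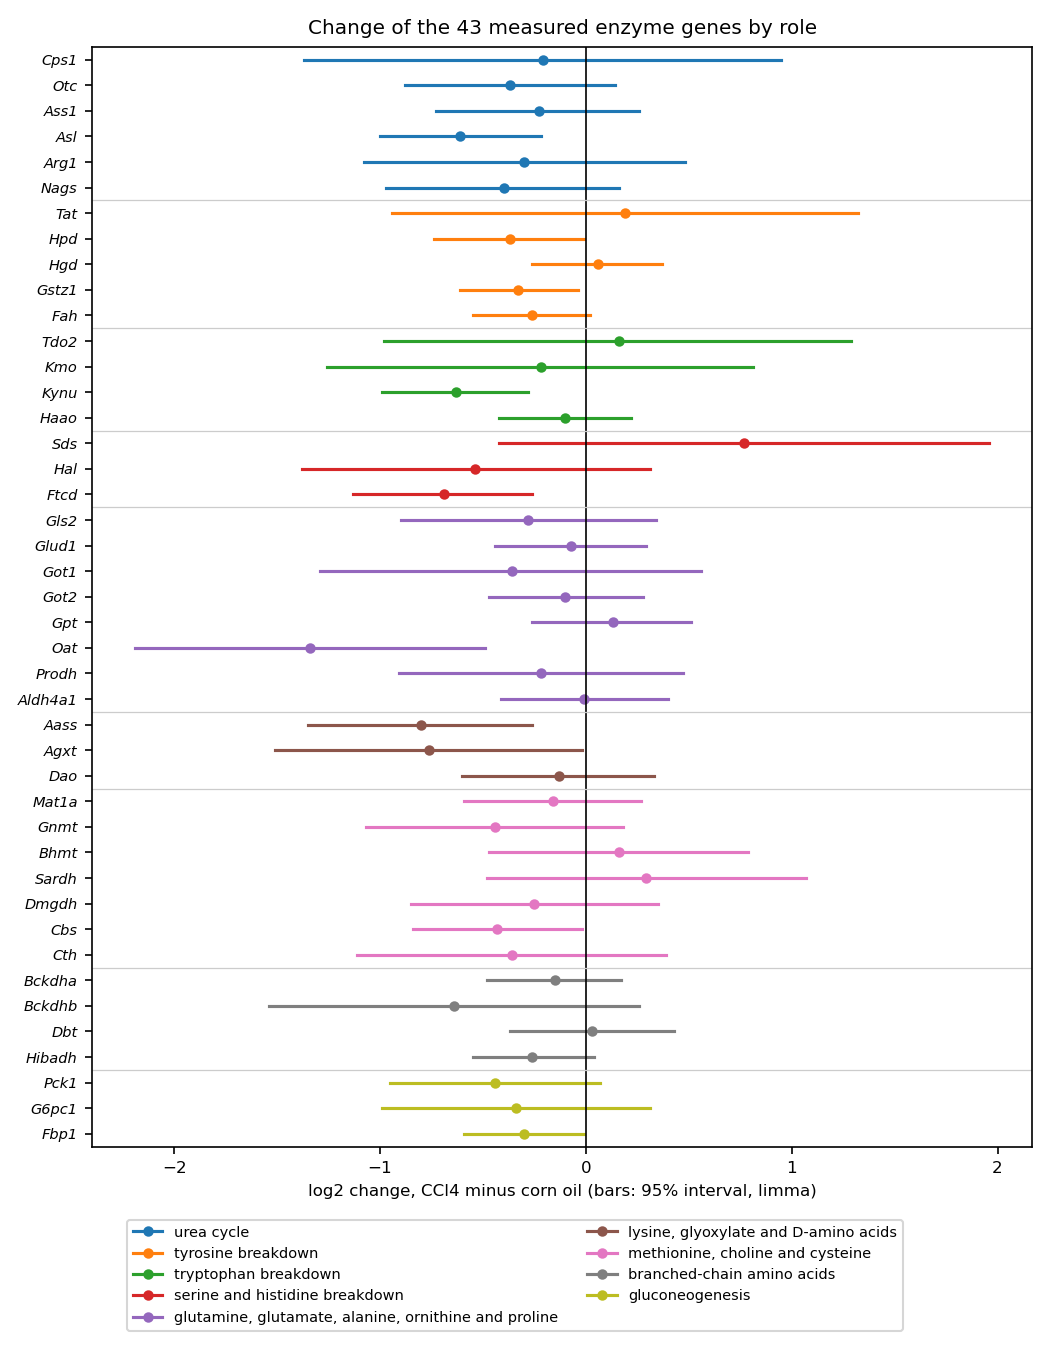
Change in log2 level, CCl4 minus corn oil, of each of the 43 measured enzyme genes (points) with its 95% interval from limma (bars), coloured and ordered by role. Points lie left of 0 for 35 of 43 genes, Oat is farthest left at -1.34, and the widest intervals belong to Sds, Cps1, Tat and Tdo2.

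In 9 of the 43 genes all CCl4 arrays lay below every corn oil array (20.9%, against 15.9% of all genes), and in none did they all lie above (against 11.5%). The share is near that of all genes. Among genes with a mean level of 4 or more it was 27.6% of the 29 enzyme genes, near the 24.5% of all bright genes. The 9 were Oat, Aass, Ftcd, Kynu, Asl, Hpd, Gstz1, Fbp1 and Fah. They came from every role described below except methionine, choline and cysteine metabolism and branched-chain breakdown.

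**Figure D2:**
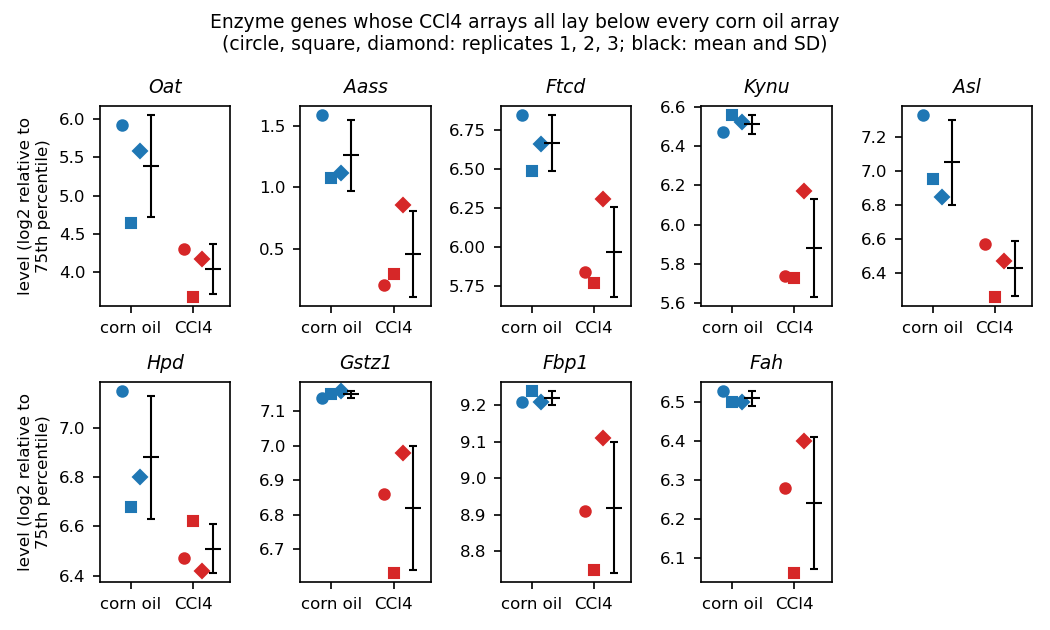
Level on each array (log2 relative to the array's 75th percentile) of the 9 enzyme genes whose 3 CCl4 animals (red) all lay below the 3 corn oil animals (blue); black bars are the mean and SD, n = 3. The gap is widest for Oat, while the CCl4 animals come closest to the corn oil animals in Hpd, followed by Fah and Fbp1.

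The urea cycle joins ammonia to ornithine and returns ornithine and urea. All 6 of its genes had a change below 0, with a median of -0.33, and none passed the test. Asl was the 1 whose groups did not overlap (16.7%, against 15.9% of all genes). Asl (argininosuccinate lyase, which splits argininosuccinate into arginine and fumarate) was at 7.33, 6.95 and 6.85 in corn oil replicates 1, 2 and 3 and at 6.57, 6.26 and 6.47 in CCl4. Its change was -0.61 ± 0.16 (SE, n = 3 per group; limma adjusted p = 0.127), or 1.53-fold lower, with a 95% interval of -1 to -0.22.

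Cps1 (carbamoyl phosphate synthetase, which commits ammonia to the cycle) was at 3.91, 3.20 and 2.44 in corn oil and at 2.37, 2.77 and 3.77 in CCl4. The groups covered the same range, and each spanned more than 1 log2 unit. The change was -0.21 ± 0.48 (adjusted p = 0.835, interval -1.37 to 0.95), so both a 2-fold fall and a rise of nearly 2-fold lay inside the interval. The sign rested on single animals: leaving out corn oil replicate 1 gave 0.15, leaving out replicate 1 of the CCl4 group gave 0.09, leaving out its replicate 3 gave -0.61, and the first slide alone gave -0.82.

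Arg1 (arginase, which releases urea) was at 7.62, 7.50 and 7.55 in corn oil and at 7.30, 6.57 and 7.92 in CCl4. Corn oil animals were close together, whereas CCl4 replicate 2 was lowest and CCl4 replicate 3 highest of all 6. The change was -0.30 ± 0.32 (adjusted p = 0.633). Nags (maker of N-acetylglutamate, the activator of Cps1) had a change of -0.40 ± 0.23. Otc (which joins carbamoyl phosphate to ornithine) had one of -0.37 ± 0.21 and Ass1 (which adds aspartate to citrulline) one of -0.23 ± 0.20. In all 3 of them the groups overlapped.

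Tyrosine is degraded through homogentisate to fumarate and acetoacetate. Of the 5 genes of this route 3 had a change below 0 and did not overlap (60%, against 15.9% of all genes and 24.5% of bright genes). None passed the test, and the median change was -0.26. Hpd (4-hydroxyphenylpyruvate dioxygenase) was at 7.15, 6.68 and 6.80 in corn oil and at 6.47, 6.62 and 6.42 in CCl4. Its change was -0.37 ± 0.15 (adjusted p = 0.247), and the nearest animals of the groups were close. Gstz1 (maleylacetoacetate isomerase) was at 7.14, 7.15 and 7.16 in corn oil and at 6.86, 6.63 and 6.98 in CCl4. Corn oil animals were nearly equal for this gene, and the change was -0.33 ± 0.12 (adjusted p = 0.215).

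Fah (fumarylacetoacetase, the last enzyme of the route) was at 6.53, 6.50 and 6.50 in corn oil and at 6.28, 6.06 and 6.40 in CCl4, a change of -0.26 ± 0.12 (adjusted p = 0.279). As for Gstz1, the spread was in the CCl4 animals. Hgd (homogentisate dioxygenase, the step between Hpd and Gstz1) had a change of 0.06 ± 0.13, and its 2 probes disagreed in sign (-0.02 and 0.06). Tat (tyrosine aminotransferase, the first step, induced by glucocorticoids) was at 3.00, 1.49 and 2.18 in corn oil and at 2.72, 1.66 and 2.87 in CCl4. The animals of each group differed by more than 2-fold, the groups overlapped, and the change was 0.19 ± 0.47 (adjusted p = 0.847, interval -0.94 to 1.32).

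Tryptophan is opened by tryptophan dioxygenase and passes through kynurenine toward NAD. Of 4 genes 3 had a change below 0, the median was -0.16, and none passed. Kynu (kynureninase, which cleaves kynurenines) was at 6.47, 6.56 and 6.52 in corn oil and at 5.74, 5.73 and 6.17 in CCl4. Its groups did not overlap, and the change was -0.63 ± 0.15 (adjusted p = 0.1, interval -0.99 to -0.28), or 1.55-fold lower. Leaving out CCl4 replicate 3 gave an adjusted p of 0.0396, and no other setting tried put an enzyme of the set past the threshold.

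Tdo2 (tryptophan dioxygenase, the liver's first step) was at 5.96, 5.24 and 5.77 in corn oil and at 5.77, 4.91 and 6.77 in CCl4. CCl4 replicates 2 and 3 were the lowest and the highest of the 6, and the change was 0.16 ± 0.47 (adjusted p = 0.878, interval -0.98 to 1.29). Kmo (kynurenine hydroxylase) had a change of -0.22 ± 0.43, with corn oil animals from 1.14 to 2.64. Haao (which makes quinolinate) had one of -0.10 ± 0.13.

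Serine and histidine are deaminated by enzymes that feed pyruvate and one-carbon pools. None of the 3 measured genes passed. Ftcd (which moves the formimino group of histidine breakdown to folate) was at 6.85, 6.49 and 6.66 in corn oil and at 5.84, 5.77 and 6.31 in CCl4, without overlap. Its change was -0.69 ± 0.18 (adjusted p = 0.118, interval -1.13 to -0.26), or 1.62-fold lower. Hal (histidine ammonia-lyase) had a change of -0.54 ± 0.35 with overlapping groups.

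Sds (serine dehydratase, a fasting-induced enzyme that makes pyruvate from serine) had the highest change of the set. It was at 3.32, 2.66 and 1.95 in corn oil and at 3.46, 2.58 and 4.19 in CCl4. CCl4 replicate 2 was below 2 corn oil animals, so the groups overlapped, and the change was 0.77 ± 0.49 (adjusted p = 0.424, interval -0.42 to 1.96).

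Glutamate, glutamine, alanine, ornithine and proline share a set of transaminases and dehydrogenases. Of these 8 genes 7 had a change below 0, with a median of -0.16, and none passed. Oat (ornithine aminotransferase, a mitochondrial enzyme of ornithine breakdown that in liver is most abundant near the central vein) was at 5.92, 4.64 and 5.59 in corn oil and at 4.30, 3.67 and 4.17 in CCl4. The lowest corn oil animal, replicate 2, was above the highest CCl4 animal, replicate 1. The change was -1.34 ± 0.35 (adjusted p = 0.125, interval -2.19 to -0.49), or 2.53-fold lower, and its 2 probes gave -1.49 and -1.34.

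The other 7 genes were closer to 0. Got1 (cytosolic aspartate aminotransferase) had a change of -0.36 ± 0.38, and Got2, its mitochondrial counterpart, one of -0.10 ± 0.15. Gls2 (liver glutaminase, which supplies ammonia for urea) had a change of -0.28 ± 0.26. Glud1 (glutamate dehydrogenase) was at -0.07 ± 0.15 by the same measure. Gpt (alanine aminotransferase, whose leakage into blood is a common sign of liver injury) had one of 0.13 ± 0.16. For the proline enzymes, the change was -0.22 ± 0.29 for Prodh and -0.01 ± 0.17 for Aldh4a1, whose 3 probes disagreed in sign and whose change was 0.04 after quantile normalization.

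Lysine, glyoxylate and D-amino acids were represented by 3 genes, all with a change below 0 and none past the test. Aass (which starts lysine breakdown) was at 1.59, 1.08 and 1.12 in corn oil and at 0.21, 0.30 and 0.86 in CCl4. Its groups did not overlap, and the change was -0.80 ± 0.23 (adjusted p = 0.139, interval -1.35 to -0.26), or 1.75-fold lower. Agxt (which detoxifies glyoxylate in peroxisomes and, in rat, mitochondria) had a change of -0.76 ± 0.31 (adjusted p = 0.247). CCl4 replicate 3 lay inside the corn oil range for Agxt, at 3.66 against 3.55 to 4.02. Dao (D-amino acid oxidase) had a change of -0.13 ± 0.19.

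The methionine, choline and cysteine group of 7 had 5 changes below 0, a median of -0.25, no gene past the test and none without overlap. Mat1a (maker of S-adenosylmethionine in adult liver) had a change of -0.16 ± 0.18. Gnmt (which uses that methyl donor to methylate glycine) had one of -0.44 ± 0.26. For the transsulfuration enzymes that lead to cysteine, the change was -0.43 ± 0.17 for Cbs (adjusted p = 0.241) and -0.36 ± 0.31 for Cth. The choline branch did not share a sign, with 0.16 ± 0.26 for Bhmt, -0.25 ± 0.25 for Dmgdh and 0.29 ± 0.32 for Sardh.

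Branched-chain amino acids lose their carboxyl group through a dehydrogenase complex. Its subunits had changes of -0.15 ± 0.13 (Bckdha), -0.64 ± 0.37 (Bckdhb) and 0.03 ± 0.17 (Dbt, whose 3 probes disagreed in sign). Hibadh, of valine breakdown, had a change of -0.26 ± 0.12. None of the 4 passed, and in all of them the groups overlapped.

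The 3 genes of gluconeogenesis all had a change below 0, with a median of -0.34, and none passed. Pck1 (phosphoenolpyruvate carboxykinase, which makes phosphoenolpyruvate from oxaloacetate) was at 7.32, 6.75 and 6.75 in corn oil and at 6.31, 6.40 and 6.79 in CCl4. CCl4 replicate 3 was just above corn oil replicates 2 and 3, and the change was -0.44 ± 0.21 (adjusted p = 0.299, interval -0.95 to 0.07). G6pc1 (glucose-6-phosphatase, which frees glucose) was at 7.64, 7.11 and 6.60 in corn oil and at 6.79, 6.58 and 6.95 in CCl4, a change of -0.34 ± 0.27 (adjusted p = 0.510). The corn oil animals spanned more than 2-fold, and CCl4 replicate 2 alone lay below them, by a small margin. Fbp1 (fructose-1,6-bisphosphatase) was at 9.21, 9.24 and 9.21 in corn oil and at 8.91, 8.75 and 9.11 in CCl4, without overlap, a change of -0.30 ± 0.12 (adjusted p = 0.248).

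The animals of a group did not contribute equally. Measured from each gene's corn oil mean, the median level of the 43 genes was 0.19, -0.05 and -0.08 in corn oil replicates 1, 2 and 3 and -0.31, -0.52 and 0.04 in CCl4 replicates 1, 2 and 3. CCl4 replicate 3 was the highest of its group for 36 of 43 genes (83.7%, against 36.5% of all genes and 36.9% of bright genes). CCl4 replicate 2 was the lowest of its group for 32 (74.4%, against 38% and 55.6%). Corn oil replicate 1 was the highest of its group for 30 (69.8%, against 27.5% and 26.4%), and for 24 genes both it and CCl4 replicate 3 were highest. CCl4 replicate 3 was above the corn oil mean for 26 of 43 genes, while CCl4 replicate 1 was below it for 36 and CCl4 replicate 2 for 41.

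The median change of the set followed single animals. It was -0.15 when corn oil replicate 1 was left out, -0.17 when CCl4 replicate 2 was, and -0.40 when CCl4 replicate 3 was. Leaving out any of the other 3 arrays gave -0.28 to -0.32. The number of genes below 0 was 30 to 39 across these 6 cases. The 2 CCl4 animals that differed most, replicates 2 and 3, shared the second slide. Within the first slide, where CCl4 is 1 animal, the median change was -0.31, and there Oat was at -1.09, Aass at -1.05, Ftcd at -0.83, Kynu at -0.78 and Pck1 at -0.64. The SD between animals was larger than usual in both groups, with a median over the set of 0.25 in corn oil and 0.30 in CCl4, against 0.17 in each over all genes.

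**Figure D3:**
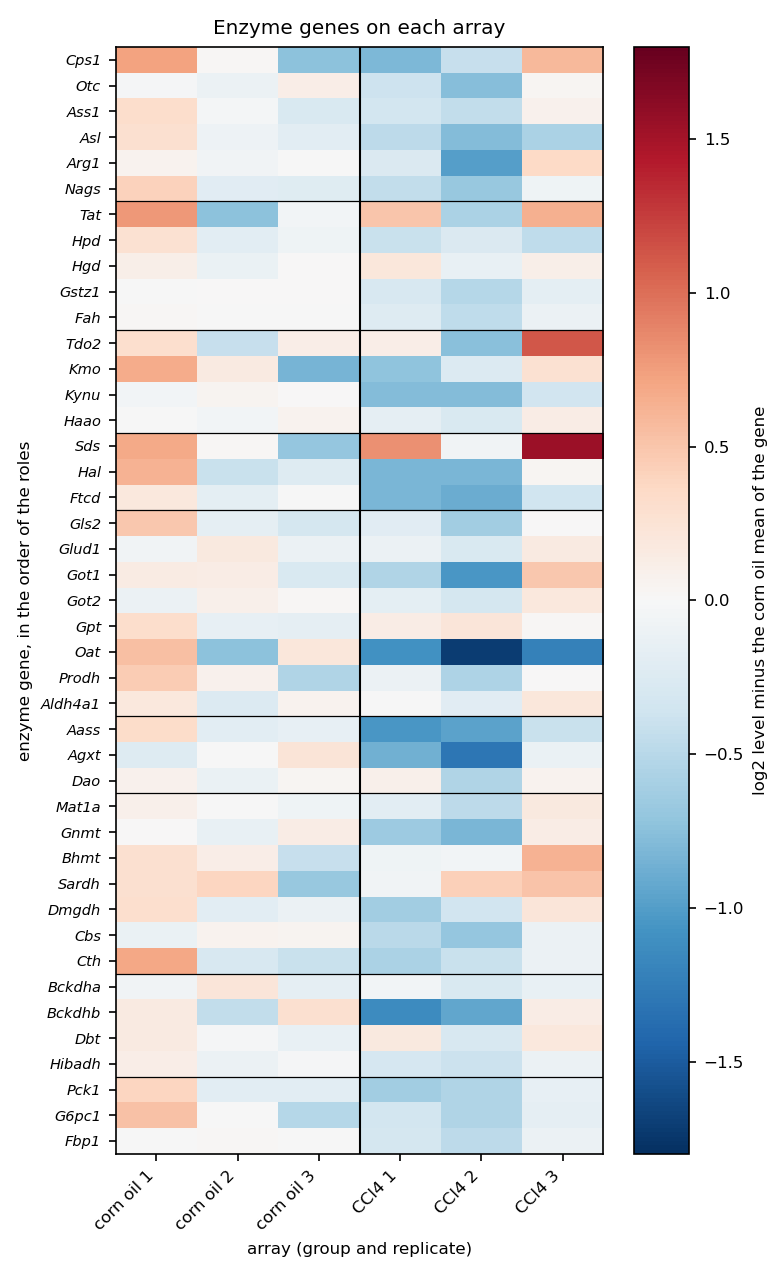
Level of each of the 43 enzyme genes (rows, ordered by role) on each array (columns) minus the gene's corn oil mean, in log2 units (red above, blue below). CCl4 replicates 1 and 2 are blue in most rows, CCl4 replicate 3 is mixed (median 0.04), and corn oil replicate 1 is red in most rows (median 0.19).

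Other genes of the same pathways, 116 on a list of enzymes, carriers and regulators of which 9 were not measured, were tested in the same fit. At the adjusted threshold, 1 was called higher (against 0.561% of all genes) and 0 lower (against 0.0754%). At an unadjusted p below 0.05, 24 were lower (22.4%, against 9.77% of all genes) and 3 higher (2.8%, against 9.95%). The change was below 0 for 82 (76.6%), and the median was -0.19, against 57.2% and -0.05 over all genes. In 26 (24.3%, against 15.9% of all genes and 24.5% of bright genes) the CCl4 arrays lay wholly below corn oil, and in 2 (1.87%, against 11.5% of all genes) wholly above. The median level of this list was 2.99, below the 4 that defines bright genes, so the share of bright genes is not matched to it.

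**Figure D4:**
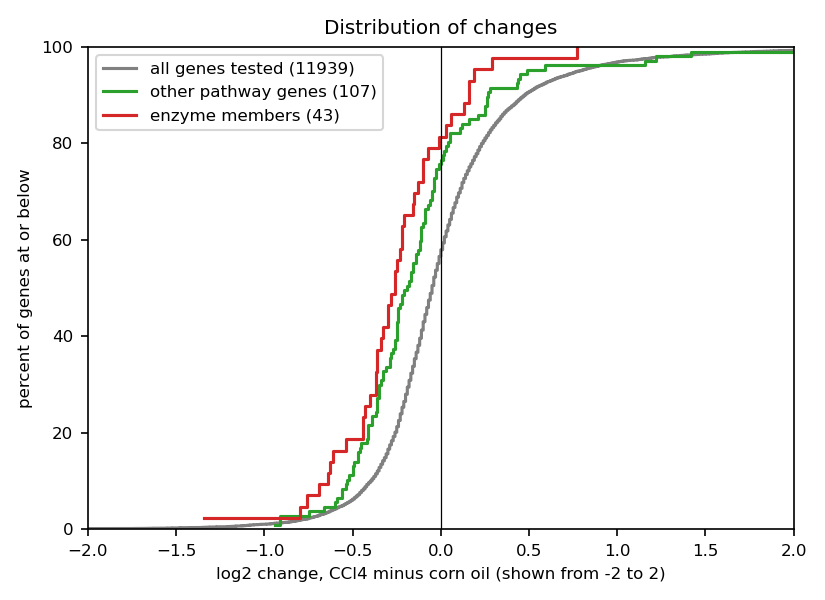
Cumulative share of genes (percent, vertical) at or below each log2 change (horizontal, CCl4 minus corn oil) for all 11939 genes tested, the other pathway genes and the 43 enzyme genes. At 0 the lines stand at 57.2, 76.6 and 81.4%, and the lines meet again at the high end.

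Bcat1 (cytosolic branched-chain aminotransferase, the form that adult hepatocytes barely express) was the 1 other pathway gene called higher. It was at -5.35, -4.23 and -5.40 in corn oil and at -2.23, -2.26 and -1.94 in CCl4, a change of 2.86 ± 0.33 (limma adjusted p = 0.0256). It was well above background in 2 of 3 corn oil animals and in all 3 CCl4 animals. The CCl4 animals, in which it was high, thus met the minimum of 3 arrays by themselves, so its p is not independent of the filter. Without the filter the limma adjusted p was 0.0455, and under the filter on all 6 arrays Bcat1 was not tested. The size depended on the background correction, with a change of 1.27 (adjusted p = 0.0164) after normexp, so no fold is given. The second slide holds only CCl4 arrays, so fitting the slide as a fixed block and using the first slide alone are the same comparison. In it CCl4 is 1 animal, the change was 2.77, and the call was not kept. Leaving out corn oil replicate 1 (adjusted p = 0.0916), corn oil replicate 3 (0.0851), CCl4 replicate 1 (0.106) or CCl4 replicate 2 (0.143) ended it too, with changes of 2.65 to 2.91. It held without corn oil replicate 2 (3.24, adjusted p = 0.00473) or CCl4 replicate 3 (2.76, adjusted p = 0.0397). With the slide as a random block it held too (2.86, adjusted p = 0.0227), but the correlation fitted within slides was -0.039, so that fit is close to the main one.

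Other pathway genes with the largest changes and groups that did not overlap were mostly lower in CCl4, and none of the following passed. In the lysine route, Pipox (pipecolate and sarcosine oxidase) had a change of -0.94 ± 0.23 (adjusted p = 0.111) and Hykk (hydroxylysine kinase) one of -0.91 ± 0.27, beside the -0.80 of Aass. In the tryptophan route, the transaminases that make kynurenic acid had -0.60 ± 0.16 (Kyat3) and -0.47 ± 0.17 (Aadat). In serine, glycine and threonine metabolism, Gcat had -0.52 ± 0.13 and Glyctk -0.39 ± 0.11. Ddo (D-aspartate oxidase) had -0.59 ± 0.10 (adjusted p = 0.0640), its CCl4 animals being at -3.32, -3.33 and -3.33 against -2.84 to -2.64.

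Among regulators of gluconeogenesis, Creb3l3 (a liver transcription factor activated by fasting) had a change of -0.50 ± 0.10 (adjusted p = 0.0766). Irs2 (an adaptor of the insulin receptor) had one of -0.75 ± 0.17 (adjusted p = 0.0998) by its brightest probe, but its 4 probes disagreed in sign and ran from -0.75 to 0.13. In the methionine and creatine branch Ahcy was at -0.42 ± 0.16 and Gatm at -0.46 ± 0.16, and in branched-chain breakdown Acadsb was at -0.56 ± 0.19 and Ivd at -0.41 ± 0.16. Gch1, which makes the cofactor of phenylalanine hydroxylase, had a change of -0.45 ± 0.19. Of the amino acid transporters, Slc3a1 had -0.50 ± 0.19 and Slc38a3 (glutamine uptake) -0.47 ± 0.12. The exception in direction was Rhbg (an ammonia transporter of hepatocytes near the central vein), with a change of 1.16 ± 0.39 (adjusted p = 0.191).

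Markers of cell types moved beside the enzyme genes. All 10 hepatocyte markers had a change below 0 (median -0.26, the same as that of the enzymes), 7 of 10 without overlap and 0 called. Over all genes 57.2% were below 0 and 15.9% lower without overlap, and over bright genes 66.6% and 24.5%. Their summed level on the linear scale, in units of the array's 75th percentile, was 7420 to 7970 in corn oil and 5910 to 6970 in CCl4, and their median shift from the corn oil mean was -0.26, -0.39 and -0.16 in CCl4 replicates 1, 2 and 3. CCl4 replicate 2 was thus the lowest and replicate 3 the highest in hepatocyte markers, the same order as in the enzymes. Replicate 2 was also the lowest of its group for 55.6% of bright genes. In corn oil the orders differed. The median shift in corn oil replicates 1, 2 and 3 was -0.01, -0.07 and 0.07 for the markers and 0.19, -0.05 and -0.08 for the enzymes. The part of hepatocyte content in the enzyme changes was not tested.

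Of macrophage markers 3 of 10 were called higher (Trem2, Gpnmb and Lgals3), against 0.561% of all genes. Their list had a summed level of 104 to 120 in corn oil and 142 to 162 in CCl4. The list did not share a direction: the Kupffer cell gene Clec4f had a change of -0.35, Vsig4 one of -0.50 and Adgre1 one of -0.43, while Csf1r was at 0.01, and none of these passed the test. None of 10 stellate cell and myofibroblast markers was called, with sums of 44.5 to 53.7 and 61.3 to 86.4. Of their changes 8 were above 0 and 2 below, and 6 genes were higher without overlap (60%, against 11.5% of all genes). Col1a2 (0.99) and Col3a1 (0.73) were the brightest of them. Acta2 was at -0.24, Lrat at -0.02, Pdgfrb at 0.05 and Col1a1 at 0.16, where the 3 probes of Col1a1 ran from 0.16 to 1.6. Of 7 measured markers of dividing cells 4 were called higher (Rrm2, Ube2c, Ccna2 and Birc5; all genes: 0.561%), with sums of 2.48 to 3.47 and 9.02 to 12.3. The sums for endothelial cells (5 of 8 measured) were 41.3 to 48.8 and 33.7 to 40.3, with none called. Kdr, the brightest of them, had a change of -0.38. The others were at -0.01 (Pecam1), 0.10 (Lyve1), 0.15 (Cdh5) and -0.12 (Eng), and the list median was -0.01. For bile duct cells (6 of 7) the sums were 1.91 to 2.23 and 2.28 to 5.08, with none called. The top value came with Spp1 at 1.57 in CCl4 replicate 3, and the list had 4 changes above 0 and 2 below (median 0.04). For T, NK and B cells (8 of 9) the sums were 4.41 to 5.47 and 3.78 to 4.06. Gzma was called lower (change -1.32), as were 0.0754% of all genes. Of the 8 changes 5 were below 0 and 3 above (Cd3e, Cd3d and Cd4), with a median of -0.07. A sum on the linear scale is weighted to the brightest genes of its list. Whether these cells had a part in the enzyme values was not tested.

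Genes that mark the zones of the liver lobule were set beside the enzymes. The periportal list of 16 shares 13 genes with the enzyme set and so is not a separate measurement. Of 12 pericentral genes, 1 of them (Oat) in the enzyme set, 8 had a change below 0 (median -0.05). Their median shift from the corn oil mean was -0.04, 0.14 and -0.02 in CCl4 replicates 1, 2 and 3. Oat (-1.34) and Cyp1a2 (-1.08) were lower without overlap (16.7% of the list, against 15.9% of all genes). Rhbg (1.16) was higher without overlap (8.33%, against 11.5%). Cyp7a1, Axin2 and Tbx3 also had changes above 0, with overlap, and no gene of the list was called. The summed level was 521 to 589 in corn oil and 319 to 475 in CCl4, with Cyp2e1 (change -0.40) the brightest gene in it. The part of the zones in the enzyme values was not tested.

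Corn oil animals differed widely from each other for 3 genes of amino acid synthesis, which were chosen after their values were seen. Phgdh (the first enzyme of serine synthesis) was at 0.18, 5.92 and 2.16 in corn oil and at 4.27, 4.08 and 4.17 in CCl4, a 53.4-fold range against 1.14-fold. Its corn oil range was the 11th widest of 11939 genes. Psat1 (the next enzyme of that route) was at -2.19, 2.52 and 0.10 in corn oil and at 0.13, -0.18 and 0.40 in CCl4, and Asns (asparagine synthetase) was at -1.35, 3.30 and 0.51 and at 1.30, 1.03 and 1.45.

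In all 3 of them corn oil replicate 1 was lowest and corn oil replicate 2 highest. Corn oil replicate 1 was the highest of its group for Pck1, G6pc1, Sds, Tat and Cps1, as it was for 30 of the 43 enzyme genes, while the order of replicates 2 and 3 varied between these 5. Of the enzyme set, the corn oil range was widest for Tat (1.52), Kmo (1.51), Cps1 (1.47), Sds (1.37) and Oat (1.28), so that for these genes the untreated animals differed from each other by more than 2-fold.

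**Figure D5:**
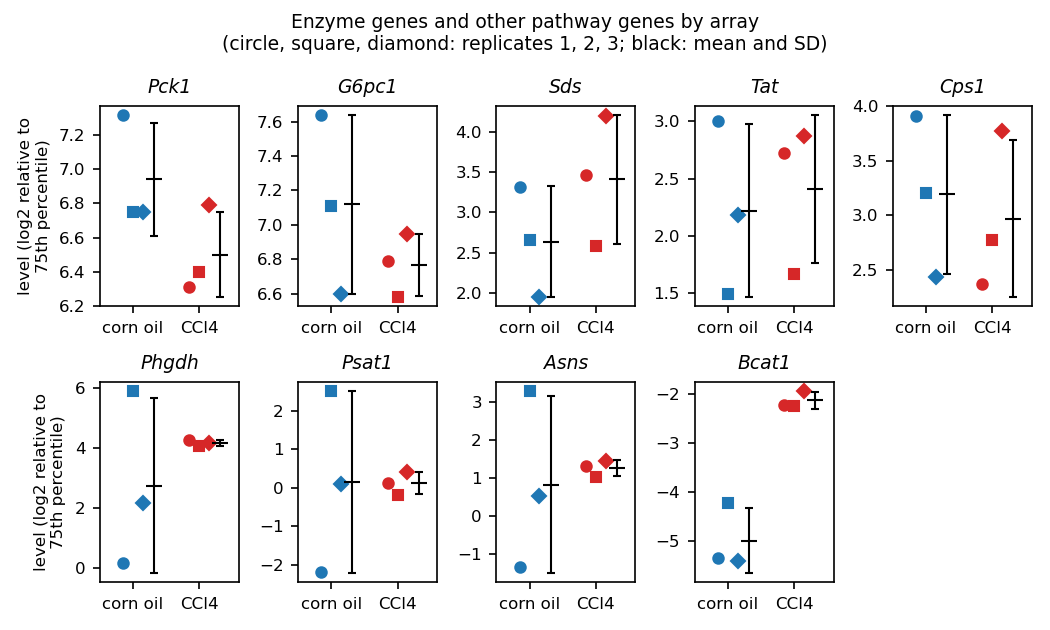
Level on each array (log2 relative to the array's 75th percentile) of 5 enzyme genes of the set (upper row) and 4 other pathway genes (lower row), in corn oil (blue) and CCl4 (red); black bars are the mean and SD, n = 3. Corn oil replicate 1 (circle) is at the top of its group in the upper row and at the bottom for Phgdh, Psat1 and Asns, whose CCl4 animals lie close together.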

How the data were processed

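Total RNA of 6 rat livers was measured on 1-colour arrays. Each deposited scanner file gives a fluorescence intensity for every spot. Feature Extraction from Agilent made them, as version 10.7 in the submitters' processing notes and 10.7.1.1 in the headers. Its processed signal, as deposited, is already background-subtracted. A deposited value table was found to hold the same signals as a ratio to each array's 75th percentile: the implied divisor was 583.3 to 676.5 units, with a spread over probes of 0.0062 to 0.017%. The deposited spot flags (0 or 1) mark background, saturation and outliers. No aligner, caller or genome applies beyond the array's rn4 design.

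From 61537 probes, after leaving out 1439 control spots, 26 with an outlier flag were dropped. Gene names came from the RefSeq accession of each probe (28206 matched, 45.8%; 15645 symbols). The brightest probe stood for a gene, and a gene was kept if well above background on at least 3 of 6 arrays. The log2 processed signal minus the array's 75th percentile was tested with limma 3.58.1 (R 4.3.3, lmFit and eBayes, two-sided), adjusted over all 11939 genes. The script was tested on simulated data. Every measured member is named at least by its change. Each called member, the 10 largest falls and 5 largest rises without overlap, and Cps1, Arg1, Tat, Tdo2, Pck1 and G6pc1 are given in full. Of other pathway genes, each called gene and, by list, the 2 largest changes in each direction without overlap are named. The members and all lists were chosen with earlier results of these data known. The labels speak of separate animals. Replicate numbers did not pair them (correlations of deviations -0.052, 0.162 and 0.019). Alternatives were scaling, background, filter, probe choice, variance model, slide (statmod 1.5.0), replicate block and leaving out each array. Results for some genes are not reported here.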

Additional observations from a re-analysis of the deposited data

How the results depend on the processing

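Over 19 alternatives, 782 of 817 values of the enzyme genes kept their direction and their side of the threshold. A further 34 changed sign, and 1 (Kynu without CCl4 replicate 3) newly passed it. Signs were kept throughout by 29 genes and not by 14. The members' median change was below 0 in all 19. These alternatives are not 19 separate checks. The variance trend, the replicate block and both filters leave the members' changes as they were, and the deposited table holds the same scaled signal, so signs could not turn there. The slide as a fixed block and the first slide alone give the same changes, since the second slide holds only CCl4 arrays. Genes called lower and higher, of all tested, were 34 and 176 with normexp, 20 and 119 with the filter on all 6 arrays, 26 and 130 with a variance trend, 16 and 112 with array weights, 0 and 4 with the slide as a fixed block and 0 and 0 on the first slide; median scaling gave 14 lower. With the replicate block, though numbers do not pair the animals, they were 0 and 10. Leaving out single replicates gave 0 to 56 lower and 2 to 185 higher, with enzyme genes called lower in 0 to 1 and other pathway genes in 0 to 1 in either direction. The 1 other pathway gene called higher became 0 with the filter on all 6 arrays, which leaves Bcat1 untested, with the slide as a fixed block, on the first slide alone and with the replicate block, and stayed at 1 with the slide as a random block. Signs reversed for Aldh4a1 after quantile normalization (0.04), for Dbt with the mean of probes (-0.05) and array weights (-0.01), and with the slide as a fixed block or the first slide alone for Dao (0.09), Bhmt (-0.08) and Sardh (-0.06). Leaving out single replicates, ranges crossing 0 were -0.61 to 0.15 for Cps1, -0.62 to 0.05 for Arg1, -0.17 to 0.58 for Tat, -0.02 to 0.15 for Hgd, -0.32 to 0.61 for Tdo2, -0.64 to 0.11 for Kmo, -0.19 to 0.03 for Glud1, -0.24 to 0.01 for Got2, -0.49 to 0.01 for Prodh, -0.13 to 0.10 for Aldh4a1, -0.25 to 0.07 for Dao, -0.07 to 0.31 for Bhmt, -0.05 to 0.49 for Sardh and -0.05 to 0.19 for Dbt. The cause was not tested. All 43 enzyme genes were well above background on every array.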
